A study of Equus caballus with 6 samples.

Results

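Genes of the WNT and beta-catenin pathway were described in the inner cell mass (ICM) and the trophectoderm (TE) of the horse (Equus caballus) blastocyst. Members were chosen by symbol alone: the WNT, FZD, TLE, DVL, DKK, SFRP, RSPO and CSNK1 families and 22 pathway genes named singly. This rule took 39 of the 12270 rows of the deposited expression table. DKKL1 entered by its spelling and encodes a protein related to the DKK family. Of the singly named genes, GSK3A, LRP5, RNF43, LGR5 and NKD1 had no row and were not analysed here, and no SFRP row was found. The samples were 3 ICM libraries (15, 22 and 25) and 3 TE libraries (16, 23 and 24) from day 8 blastocysts produced in vivo in superovulated mares. All blastocysts were treated with the protease Pronase, TE was isolated mechanically, and ICM was freed by immunosurgery, a complement-mediated lysis of the outer layer. Tissue and isolation method coincide, and their shares in a difference cannot be told apart. No genotype, strain or drug was stated to differ between the groups, the mares were not named, and no label paired ICM with TE libraries by embryo. The p-values therefore cover only the variation among these 6 libraries.

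WNT proteins are secreted lipid-modified ligands that bind Frizzled receptors and the coreceptors LRP5 and LRP6. Without a ligand, a destruction complex of APC, AXIN, casein kinase 1 and GSK3 marks beta-catenin for breakdown. With a ligand, Dishevelled proteins help to disable this complex, and beta-catenin enters the nucleus and binds TCF/LEF factors in place of the Groucho (TLE) corepressors. In the mammalian blastocyst the pathway has been studied chiefly for its bearing on pluripotency, through TCF7L1 and beta-catenin, while beta-catenin also links cadherins to the cytoskeleton at epithelial junctions. WNT ligands that act without beta-catenin, among them WNT5A and WNT11, steer cell polarity and movement.

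The rows of the table held 6526212 to 10686659 reads in each library. Among the marker lists, the summed level of the 8 trophectoderm markers with a row was 49.8 to 77.9 RPKM in ICM and 150 to 192 RPKM in TE (RPKM is a read count divided by gene length and library depth). The 9 epiblast markers summed to 102 to 201 RPKM in ICM and 103 to 132 RPKM in TE, and SOX2 was at 0 in every TE library. Of these 9, KLF4, GDF3, NANOG, PRDM14 and SOX2 had every ICM library above TE, ESRRB and ZFP42 had every TE library above ICM, and POU5F1 and DPPA4 overlapped. The 10 hypoblast markers, which include the member RSPO3, summed to 109, 122 and 33.4 RPKM in ICM 15, 22 and 25 and to 36.2 to 49.4 RPKM in TE. ICM 25 thus stood apart: it was the lowest of the 6 libraries for 50.9% of the 9436 genes tested. It held 1.75 RPKM of the pluripotency factor NANOG, where ICM 15 and 22 held 14.1 and 12.4 RPKM and the TE libraries at most 0.157 RPKM. Of the other epiblast markers, PRDM14, SOX2, POU5F1 and DPPA4 were also lower in ICM 25 than in ICM 15 and 22. KLF4, GDF3, ZFP42 and ESRRB were not, and in ICM 25 they lay between ICM 15 and 22. The median of ratios factor, the median over genes of a library's ratio to the mean library, was 0.734 in ICM 25. In the other libraries it was 1.002 to 1.143. The part of this scale in the low values of ICM 25 was not tested. The 5 blood and immune markers with a row summed to 3.40 to 7.60 RPKM in ICM and 2.36 to 2.98 RPKM in TE. The 3 markers of uterine epithelium and stroma with a row (MUC1, VIM and COL1A2) summed to 15.8 to 20.3 RPKM in ICM and 3.75 to 11.2 RPKM in TE. The 2 cumulus and granulosa markers with a row (CYP19A1 and PTX3) summed to 5.39 to 33.0 RPKM in ICM and 5.67 to 19.2 RPKM in TE. The part of other cells in the results below was not tested. In such bulk samples fewer cells of a type and less RNA per cell cannot be told apart.

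The most abundant members were mostly intracellular kinases and beta-catenin, and limma called none of the 5 highest. The kinase GSK3B led with a mean of 34.4 RPKM over the 6 libraries, followed by CSNK1D (30.3), CSNK1A1 (29.2), CTNNB1, which encodes beta-catenin (28.9), and the ligand carrier WLS (27.9). The libraries of these 5 overlapped between neighbours in this order. The other 34 members stood below 20 RPKM, and the lowest was WNT5B at 0.269 RPKM. The median member had 3.29 RPKM, against 3.76 RPKM for the median row of the table.

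**Figure D1:**
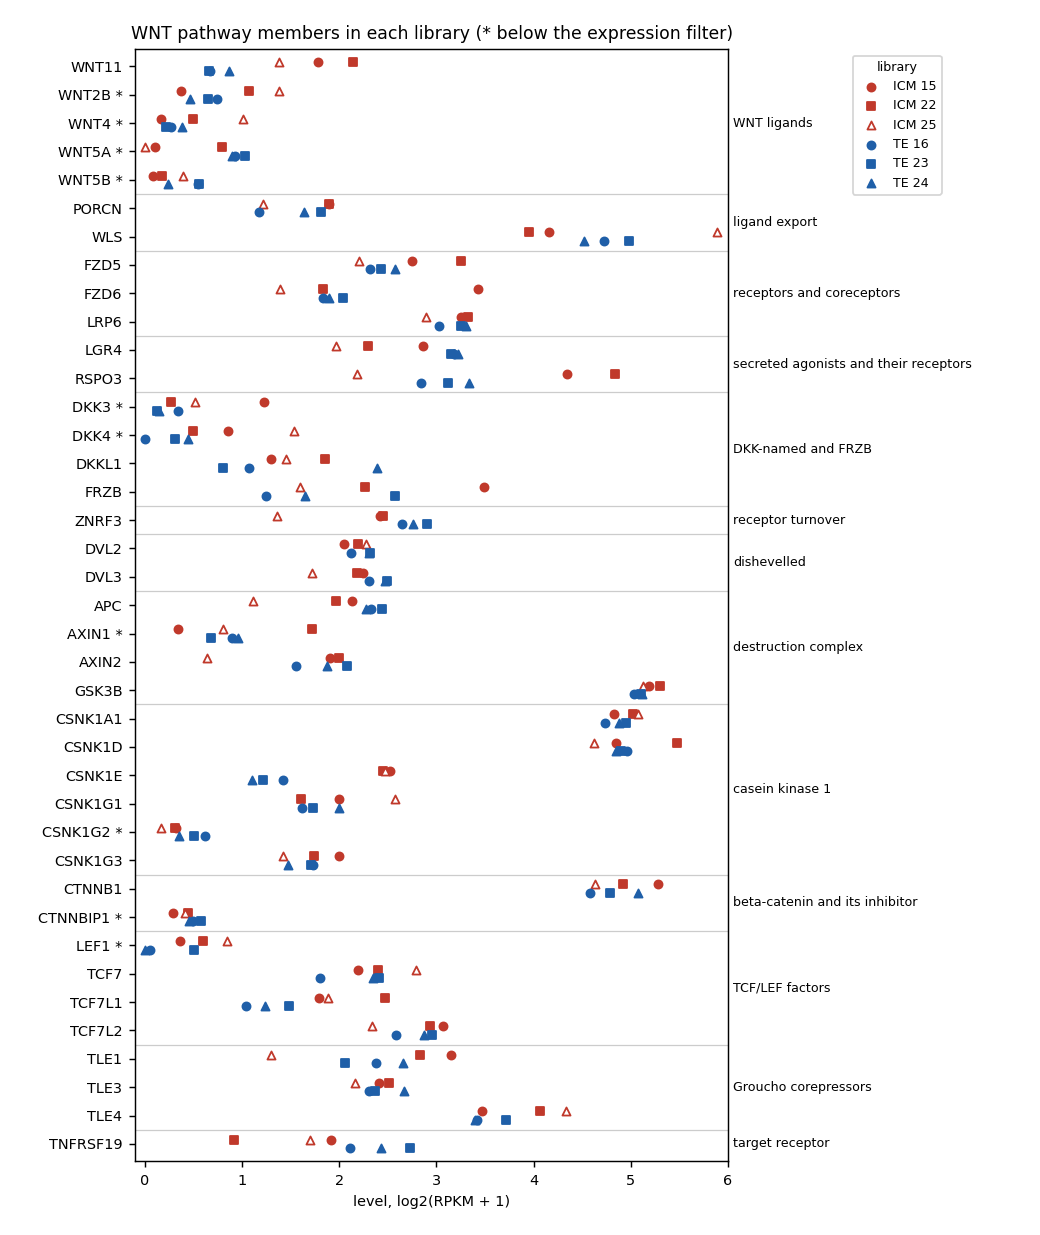
Level of each of the 39 members in each library, as log2(RPKM + 1) on the horizontal axis, with ICM in red, TE in blue and ICM 25 drawn open. GSK3B, CSNK1A1, CSNK1D, CTNNB1 and WLS stand to the right, the WNT and DKK genes to the left, and CSNK1E shows 3 ICM libraries at 4.47 to 4.74 RPKM apart from 3 TE libraries at 1.15 to 1.67 RPKM.

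For the comparison of the tissues, genes reaching 1 RPKM in 3 or more libraries were tested with limma on log2(RPKM + 1), and the p-values were adjusted by Benjamini-Hochberg over all 9436 genes tested. Differences subtract TE from ICM on this log2 scale, carry a standard error (SE), and understate the change of low genes. Of the 39 members, 29 passed this filter, and WNT11 was the member that passed through ICM alone. At an adjusted p of 0.05, 1 of the 29 passed with ICM higher and 0 with TE higher, or 3.45% of them. Of all genes 1.87% were called, 0.933% in each direction. At an unadjusted p under 0.05 there were 5 members, or 17.2%, where 16.9% of all genes passed. The median difference of the 29 was 0.11, against -0.15 for all genes tested. Median of ratios rescaling moved the median of all genes to 0.0053, so that a difference of a member near -0.15 lay at the centre of the genes tested.

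The called member was CSNK1E, casein kinase 1 epsilon, a kinase that phosphorylates Dishevelled and also the clock proteins PER. CSNK1E had 4.74, 4.47 and 4.54 RPKM in ICM 15, 22 and 25, against 1.67, 1.32 and 1.15 RPKM in TE 16, 23 and 24. These values rest on 143 to 174 reads per ICM library and 33 to 57 reads per TE library. The ICM libraries, ICM 25 included, lay close together and well above every TE library. The mean was 4.58 ± 0.144 RPKM in ICM and 1.38 ± 0.267 RPKM in TE (SD, n = 3 each), a ratio of 3.33. The difference was 1.24 (SE 0.23, limma adjusted p = 0.038). It stayed between 1.17 and 1.32 when single libraries were left out. The call was kept without ICM 25 (adjusted p = 0.013), while the adjusted p was 0.089 without ICM 15, 0.068 without ICM 22, and 0.17, 0.26 and 0.20 without TE 16, 23 and 24, fits without a TE library in which 0, 1 and 1 of all genes were called. Over all alternatives it ran from 0.011 to 0.26. It was 0.053 with no expression filter and 0.057 by limma voom on the reads. The row lies on chromosome 28 from 35414649 to 35434447 (build not named), and it overlaps the row of MAFF, a small MAF transcription factor, from 35352375 to 35425698. MAFF had 1.31, 3.78 and 6.42 RPKM in ICM 15, 22 and 25, against 1.31, 1.0 and 2.39 RPKM in TE 16, 23 and 24. Strand was not stated, and CSNK1E resembles CSNK1D closely, so reads shared with either gene cannot be told apart.

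None of the other 4 casein kinase 1 genes tested was called by limma. CSNK1A1, the isoform that primes beta-catenin for GSK3, had 27.4, 31.4 and 32.7 RPKM in ICM 15, 22 and 25, against 25.6, 29.9 and 28.4 RPKM in TE 16, 23 and 24. CSNK1D had 27.8, 43.4 and 23.6 RPKM in the ICM libraries, against 30.2, 28.8 and 27.8 RPKM in the TE libraries. Both overlapped between the tissues, with differences of 0.12 (SE 0.22) and 0.08 (SE 0.27). The membrane-bound CSNK1G1 stood at 3.33 ± 1.49 RPKM in ICM and 2.45 ± 0.475 RPKM in TE, and CSNK1G3 at 2.33 ± 0.654 RPKM in ICM and 2.12 ± 0.294 RPKM in TE (SD, n = 3 each). CSNK1G2 stayed below the filter, at 0.125 to 0.246 RPKM in ICM and 0.278 to 0.540 RPKM in TE, on 3 to 14 reads per library. Of the summed RPKM of the 6 casein kinase 1 genes, CSNK1E took 7.17%, 5.33% and 6.72% in ICM 15, 22 and 25, against 2.67%, 2.03% and 1.84% in TE 16, 23 and 24. CSNK1A1 and CSNK1D together made up most of the family in every library.

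Among the ligands, WNT11, which in vertebrates guides cell movements, had the highest mean in ICM. It had 2.42, 3.41 and 1.61 RPKM in ICM 15, 22 and 25, on 69, 118 and 45 reads, against 0.594, 0.584 and 0.816 RPKM in TE 16, 23 and 24, on 18, 13 and 24 reads. Every ICM library lay above every TE library, ICM 25 least so. The mean was 2.48 ± 0.903 RPKM in ICM and 0.665 ± 0.131 RPKM in TE, and the difference of 1.03 (SE 0.26) missed the threshold (limma adjusted p = 0.091). Without ICM 25 it was 1.23 and passed (adjusted p = 0.016), as it did with median of ratios rescaling (0.040), quantile normalization (0.038) and library weights (0.013). Over all alternatives the adjusted p ran from 0.013 to 0.38. Since WNT11 passed the filter through ICM alone, these values are descriptions. WNT11 lies on chromosome 7 from 68044789 to 68053246 (build not named).

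The other 4 ligands stayed below the filter. WNT5A, a ligand of the branch without beta-catenin, had 0.071, 0.729 and 0 RPKM in ICM 15, 22 and 25, on 2, 25 and 0 reads, against 0.899, 1.04 and 0.858 RPKM in TE 16, 23 and 24, on 27, 23 and 25 reads. The TE libraries were even and above every ICM library, and ICM 22 came close to them. With no expression filter its difference was -0.65 (SE 0.24, limma adjusted p = 0.22). WNT5B had 0.0616, 0.127 and 0.313 RPKM in the ICM libraries, against 0.463, 0.473 and 0.179 RPKM in the TE libraries. WNT2B had 0.290, 1.1 and 1.61 RPKM in ICM 15, 22 and 25, against 0.667, 0.572 and 0.382 RPKM in TE 16, 23 and 24. WNT4 had 0.125, 0.411 and 1.02 RPKM in the ICM libraries, against 0.205, 0.16 and 0.302 RPKM in the TE libraries. WNT5B, WNT2B and WNT4 overlapped between the tissues, and for WNT2B and WNT4 the highest library was ICM 25. The 5 ligand rows summed to 4.43 ± 1.41 RPKM in ICM and 2.73 ± 0.169 RPKM in TE.

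Of the ligand export genes, WLS varied most within ICM. WLS carries WNT proteins to the cell surface, and it had 16.8, 14.5 and 58.2 RPKM in ICM 15, 22 and 25, against 25.4, 30.6 and 22.0 RPKM in TE 16, 23 and 24. ICM 25 held the most of all libraries, on 2698 reads, while ICM 15 and 22 lay below every TE library. The difference was -0.08 (SE 0.47, limma adjusted p = 0.96) and -0.69 (SE 0.20, adjusted p = 0.062) without ICM 25. Its sign turned with rescaling. PORCN, the acyltransferase that adds the lipid to WNT proteins, stood at 2.25 ± 0.812 RPKM in ICM and 1.96 ± 0.639 RPKM in TE, with overlapping libraries.

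None of the 3 receptors and coreceptors tested was called by limma. LRP6, the coreceptor, had 8.51, 9.02 and 6.44 RPKM in ICM 15, 22 and 25, against 7.17, 8.55 and 8.91 RPKM in TE 16, 23 and 24, and its difference was -0.04 (SE 0.24, limma adjusted p = 0.95). FZD5, a receptor that binds WNT ligands, had 5.71, 8.50 and 3.60 RPKM in the ICM libraries, against 3.97, 4.38 and 4.95 RPKM in the TE libraries. FZD6 had 9.74, 2.55 and 1.62 RPKM in ICM 15, 22 and 25, against 2.55, 3.11 and 2.73 RPKM in TE 16, 23 and 24. For both Frizzled genes the ICM libraries ran from below to above those of TE, and a single library, ICM 15, carried the higher FZD6 mean of ICM. Without it the FZD6 difference was -0.31 in place of 0.29. The row of FZD5 overlaps that of CCNYL1 in part, and the row of DVL3 lies within that of ALG3. Reads from the shared stretches cannot be told apart.

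RSPO3 and LGR4, a secreted amplifier of WNT signalling and a receptor that binds it, showed different patterns. RSPO3 had 19.2, 27.6 and 3.55 RPKM in ICM 15, 22 and 25, against 6.16, 7.69 and 9.06 RPKM in TE 16, 23 and 24. ICM 15 and 22 were the highest libraries and ICM 25 the lowest, so the tissues overlapped. The difference was 0.69 (SE 0.59, limma adjusted p = 0.61). Without ICM 25 it was 1.49 (SE 0.23) and passed (adjusted p = 0.0089), as it did with library weights (0.041), and over all alternatives the adjusted p ran from 0.0089 to 0.89. RSPO3 was also in the hypoblast marker list, and the hypoblast factor GATA4 had a like order, with 20.7, 21.4 and 2.33 RPKM in ICM 15, 22 and 25, against 5.60 to 7.93 RPKM in TE. Not all markers of that list had this order: for 3 of the 10, every ICM library, ICM 25 included, lay above every TE library. Of the 10 hypoblast markers, RSPO3 included, 7 were called higher in ICM without ICM 25, where 5.89% of all genes were, and 2 with all libraries, where 0.933% were. The list was chosen with results of these data known and holds RSPO3 itself, so these counts are descriptions only. How many of the 10 passed the filter through ICM alone was not counted. The part of hypoblast content in the RSPO3 level was not tested.

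LGR4 had 6.27, 3.92 and 2.90 RPKM in ICM 15, 22 and 25, against 8.04, 7.85 and 8.30 RPKM in TE 16, 23 and 24. Its TE libraries had the lowest SD in log2 units of the 29 members and lay above every ICM library. The mean was 4.37 ± 1.73 RPKM in ICM and 8.06 ± 0.224 RPKM in TE, and the difference of -0.80 (SE 0.28) was not called (limma adjusted p = 0.19, and 0.098 to 0.52 over the alternatives). ZNRF3, the membrane ubiquitin ligase that removes Frizzled receptors and that RSPO proteins inhibit, had 4.35, 4.45 and 1.57 RPKM in the ICM libraries, against 5.27, 6.50 and 5.75 RPKM in the TE libraries. It was likewise below TE in every ICM library, with a difference of -0.69 (SE 0.33, adjusted p = 0.33) that was -0.34 without ICM 25.

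**Figure D2:**
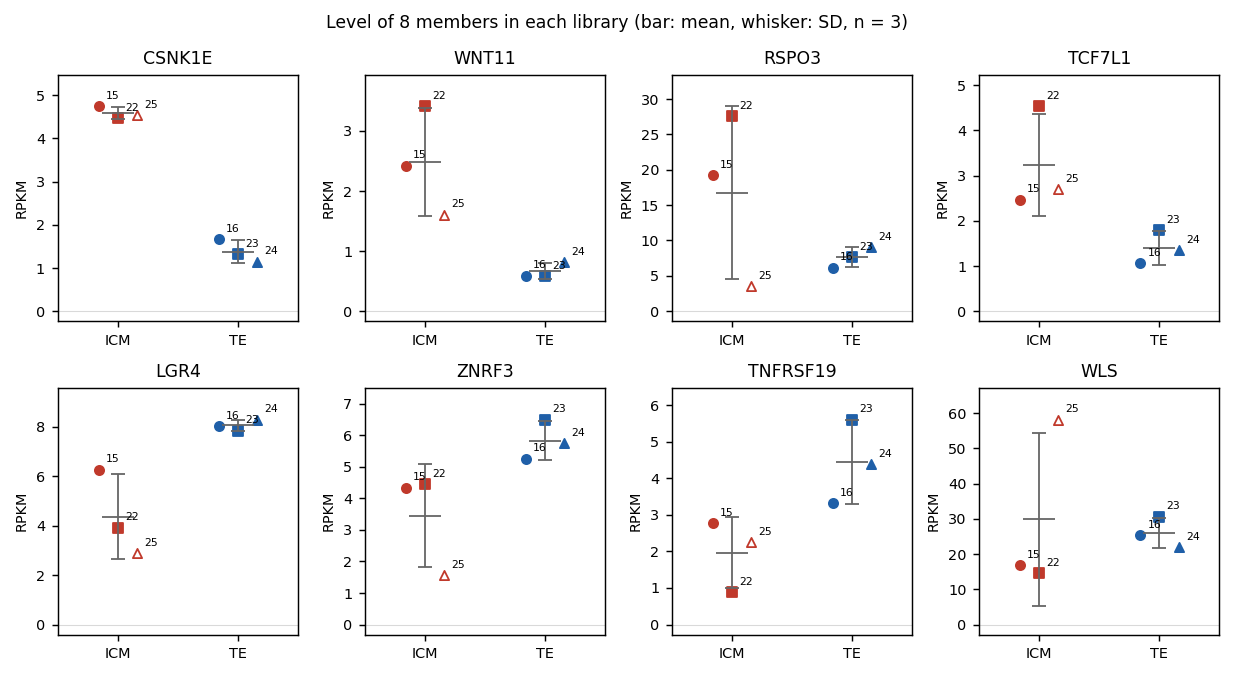
Level in RPKM of 8 members in each library, with ICM on the left and TE on the right of each panel, library numbers beside the points, the mean as a bar and the SD as whiskers (n = 3 each). CSNK1E is tight in both tissues, RSPO3 in ICM 25 is at 3.55 RPKM, below the TE libraries, and WLS in ICM 25 stands at 58.2 RPKM, above all others.

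FRZB and DKKL1 were tested and not called by limma, DKK3 and DKK4 were below the filter, and FRZB and DKK4 were called in the authors' deposited table (adjusted p = 0.025 and 0.033). FRZB, a decoy that binds WNT proteins outside the cell, had 10.2, 3.82 and 2.02 RPKM in ICM 15, 22 and 25, against 1.38, 4.95 and 2.13 RPKM in TE 16, 23 and 24. ICM 15 was the highest, the other libraries were mixed, and the difference of 0.63 (SE 0.50, limma adjusted p = 0.58) was 0.11 without ICM 15. DKK4, an inhibitor that binds LRP6, had 0.810, 0.410 and 1.90 RPKM in the ICM libraries, against 0, 0.239 and 0.362 RPKM in the TE libraries. Every ICM library lay above every TE library, on 8 to 30 reads in ICM and 0 to 6 in TE, and with no filter the difference was 0.71 (SE 0.28, adjusted p = 0.24). DKK3, which is less clearly a WNT inhibitor, had 1.33, 0.202 and 0.428 RPKM in ICM, against 0.263, 0.0896 and 0.102 RPKM in TE. DKKL1 had 1.46, 2.60 and 1.73 RPKM in ICM, against 1.1, 0.749 and 4.25 RPKM in TE, and overlapped in full.

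Dishevelled was read as DVL2 and DVL3. DVL2 had 3.15, 3.56 and 3.84 RPKM in ICM 15, 22 and 25, against 3.34, 3.98 and 3.94 RPKM in TE 16, 23 and 24. DVL3 had 3.73, 3.53 and 2.29 RPKM in the ICM libraries, against 3.93, 4.61 and 4.55 RPKM in the TE libraries. DVL2 overlapped between the tissues, and DVL3 was lower in every ICM library, with a difference of -0.37 (SE 0.25, limma adjusted p = 0.50).

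Within the destruction complex, the scaffold APC had 3.37, 2.90 and 1.17 RPKM in ICM 15, 22 and 25, against 4.0, 4.42 and 3.85 RPKM in TE 16, 23 and 24. APC was lower in every ICM library, but its difference of -0.61 (SE 0.30) was not called (limma adjusted p = 0.36) and was -0.30 without ICM 25. GSK3B had 35.4, 38.4 and 33.9 RPKM in ICM, against 31.7, 33.5 and 33.8 RPKM in TE, which did not overlap although the means differed by a ratio of only 1.09 (difference 0.12, SE 0.21). AXIN2, a scaffold and a common target gene of the pathway, had 2.75, 2.98 and 0.556 RPKM in ICM 15, 22 and 25, against 1.93, 3.22 and 2.66 RPKM in TE 16, 23 and 24. ICM 25 alone was low, and without it the AXIN2 difference was 0.12 in place of -0.32. AXIN1 stayed below the filter, with 0.264, 2.28 and 0.747 RPKM in the ICM libraries, against 0.855, 0.601 and 0.938 RPKM in the TE libraries.

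Beta-catenin itself did not separate the tissues. CTNNB1 had 37.7, 29.4 and 23.8 RPKM in ICM 15, 22 and 25, against 22.9, 26.6 and 32.8 RPKM in TE 16, 23 and 24, on 1539 to 2791 reads per library. The mean was 30.3 ± 7.0 RPKM in ICM and 27.4 ± 5.0 RPKM in TE, and the difference was 0.13 (SE 0.26, limma adjusted p = 0.85). Transcript level does not report the amount or place of the protein, which is set mainly by its breakdown. CTNNBIP1, which keeps beta-catenin from TCF factors, was at 0.219 to 0.360 RPKM in ICM and 0.370 to 0.489 RPKM in TE, on 4 to 8 reads per library.

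None of the 3 TCF/LEF factors tested was called by limma, while TCF7L1 was called in the authors' deposited table (adjusted p = 0.019), and TCF7L1 was the member of this group whose tissues did not overlap. TCF7L1, which represses targets of the pathway in mouse embryonic stem cells, had 2.47, 4.54 and 2.70 RPKM in ICM 15, 22 and 25, against 1.06, 1.79 and 1.36 RPKM in TE 16, 23 and 24. Every ICM library lay above every TE library, and ICM 25 was within the range of the other ICM libraries. The mean was 3.23 ± 1.13 RPKM in ICM and 1.40 ± 0.369 RPKM in TE, a difference of 0.80 (SE 0.27) that missed the threshold (limma adjusted p = 0.19, and 0.077 to 0.53 over the alternatives). TCF7L2 had 7.39, 6.64 and 4.06 RPKM in the ICM libraries, against 5.0, 6.75 and 6.33 RPKM in the TE libraries (difference -0.02, SE 0.27). TCF7 had 3.56, 4.27 and 5.91 RPKM in ICM, against 2.48, 4.30 and 4.10 RPKM in TE (difference 0.27, SE 0.28). LEF1 stayed below the filter, with 0.289, 0.508 and 0.796 RPKM in ICM, against 0.0387, 0.422 and 0 RPKM in TE, on 0 to 19 reads per library.

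The Groucho corepressors had overlapping libraries. TLE4 was the most abundant, with 10.04, 15.7 and 19.2 RPKM in ICM 15, 22 and 25, against 9.70, 12.1 and 9.5 RPKM in TE 16, 23 and 24. TLE1 had 7.88, 6.09 and 1.45 RPKM in the ICM libraries, against 4.18, 3.17 and 5.28 RPKM in the TE libraries. ICM 25 was the lowest of all libraries for TLE1 and the highest for TLE4. TLE3 was even, at 4.16 ± 0.626 RPKM in ICM and 4.47 ± 0.749 RPKM in TE. TNFRSF19 (TROY), a receptor known as a target of the pathway, had 2.77, 0.882 and 2.24 RPKM in ICM 15, 22 and 25, against 3.31, 5.60 and 4.39 RPKM in TE 16, 23 and 24. Every TE library lay above every ICM library, and the difference of -0.91 (SE 0.32) was not called (limma adjusted p = 0.20, and 0.068 to 0.58 over the alternatives).

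**Figure D3:**
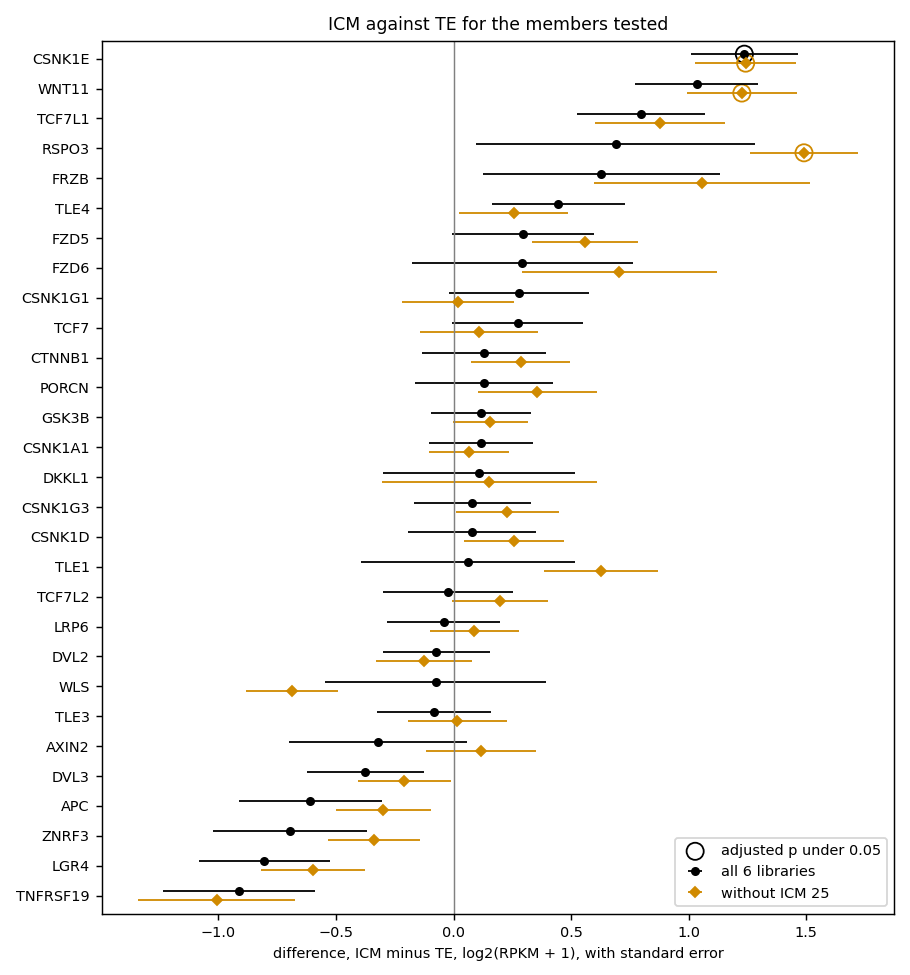
Difference ICM minus TE in log2(RPKM + 1) with its SE for the 29 members tested, with all 6 libraries (black) and without ICM 25 (orange), and circles where the limma adjusted p was under 0.05. CSNK1E is circled in both fits at 1.24, and WNT11 (1.23) and RSPO3 (1.49) are circled only without ICM 25.

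Counted over the members, the libraries of the tissues did not overlap for 9 of the 29 tested, or 31.0% where 24.6% of all genes did not, 4 with ICM above TE (CSNK1E, WNT11, TCF7L1 and GSK3B) and 5 with TE above ICM (LGR4, ZNRF3, DVL3, APC and TNFRSF19). Over all genes tested, 6.81% had every ICM library above TE and 17.8% every TE library above ICM, against 13.8% and 17.2% of the members, so the share with TE above was near the background. Of the 10 members below the filter, DKK4 had every ICM library above TE, and WNT5A, CSNK1G2 and CTNNBIP1 had every TE library above ICM. These rest on at most 30 reads per library. The share over all rows below the filter was not counted, so this is a description only. Without ICM 25, 3 members passed with ICM higher (CSNK1E, WNT11 and RSPO3) and 0 with TE higher, or 10.3%. Of all genes 11.5% then passed, made up of 5.89% with ICM higher and 5.62% with TE higher. The members' share is near this background. In the counts of this paragraph WNT11 is a description, since it passed the filter through ICM alone. The median difference of the members was then 0.16, against -0.01 for all genes.

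The spread of the members within a tissue was like that of other genes. On the log2 scale the median SD was 0.40 in ICM and 0.18 in TE for the members, against 0.44 in ICM and 0.19 in TE for all genes tested. ICM 25 was the lowest of the 6 libraries for 14 of the 29 members, or 48.3%, where 50.9% of all genes had it lowest. It was the highest for 5 members (WLS, CSNK1A1, CSNK1G1, TCF7 and TLE4), or 17.2%, where 9.95% of all genes had it highest.

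**Figure D4:**
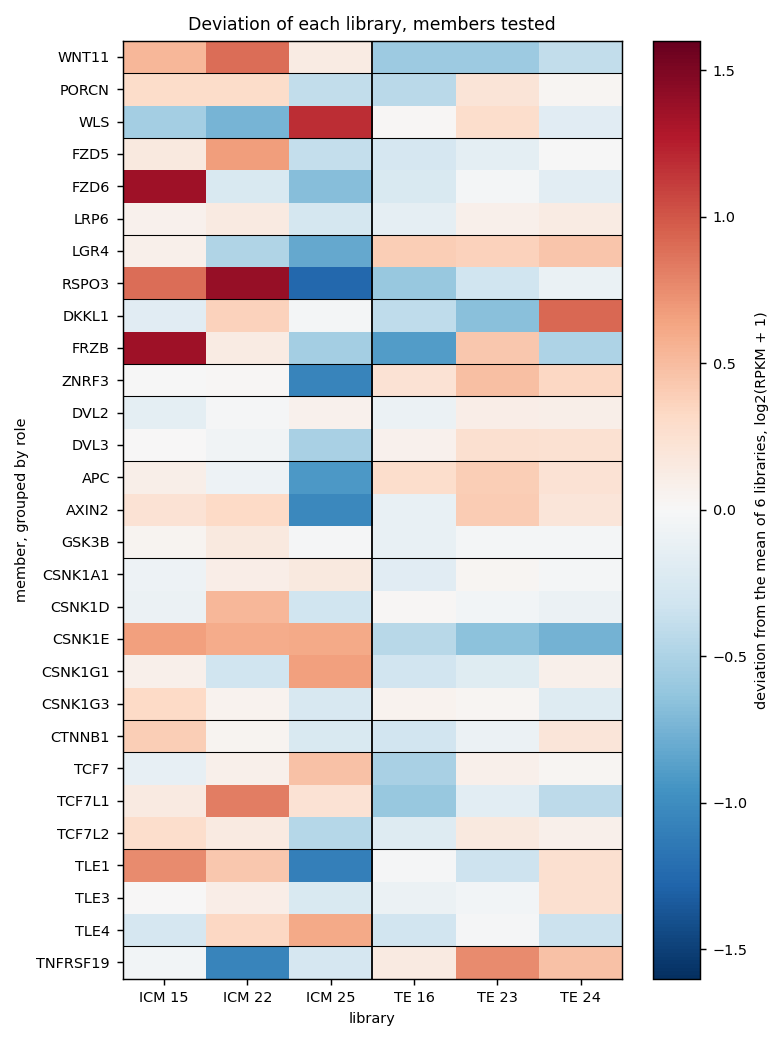
Deviation of each library from the mean of the 6 libraries for the 29 members tested, in log2(RPKM + 1), with members grouped by role and ICM left of TE. ICM 25 is lowest for 14 members, among them RSPO3, ZNRF3, APC, AXIN2 and TLE1, and CSNK1E is high in all 3 ICM libraries.

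In the authors' deposited table, made with DESeq on counts, 7 of the 39 members had an adjusted p under 0.05, or 17.9%. Of all rows 16.6% did, 10.7% higher in ICM and 5.96% higher in TE. In the authors' deposited table, members higher in ICM numbered 6: CSNK1E (fold 3.33, adjusted p = 0.00013), RSPO3 (2.20, 0.0011), WNT11 (3.73, 0.0018), TCF7L1 (2.31, 0.019), FRZB (1.90, 0.025) and DKK4 (5.19, 0.033). LGR4 was the member higher in TE there, with a fold of 0.541 for ICM over TE and an adjusted p of 0.025 in the authors' deposited table. CSNK1E was called both there and by limma. RSPO3 and FRZB were called there although their tissues overlapped. For RSPO3, ICM 25 lay below every TE library. For FRZB, both ICM 22 and ICM 25 lay below TE 23.

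Genes of the pathway outside the rule were counted in 8 lists, with 82 rows, of which 72 were tested. Of these, 2 passed with ICM higher and 1 with TE higher, or 4.17% beside the 1.87% of all genes, and their median difference was -0.03. The glypican GPC4, a surface proteoglycan that can hold WNT proteins, was called in the list of surface and secreted regulators (5 tested), with 22.9, 20.3 and 2.64 RPKM in ICM 15, 22 and 25, a mean of 15.3 ± 11.0 RPKM in ICM and 0.0928 ± 0.0983 RPKM in TE. GPC4 passed the filter through ICM alone, so its call is a description and the 4.17% is no support for the lists. DAB2, an endocytic adaptor that also binds Dishevelled and AXIN, was called higher in TE in the list of cytoplasmic modulators (10 tested), at 32.8 ± 10.8 RPKM in ICM and 142 ± 12.4 RPKM in TE. JUP (plakoglobin), the close relative of beta-catenin at junctions, was called in the list of adherens junctions (7 tested), at 22.8 ± 2.5 RPKM in ICM and 9.46 ± 1.31 RPKM in TE. All 3 calls held without ICM 25 and were lost without any TE library or without ICM 15, and those of GPC4 and JUP also without ICM 22, at adjusted p of 0.051 to 0.29.

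The remaining lists held 0 calls by limma with all libraries: beta-catenin turnover (13 tested), nuclear partners (14), ligand export and retromer (7), planar cell polarity (11) and common target genes outside the rule (5). Without ICM 25, 8 of the 72 passed with ICM higher and 1 with TE higher, or 12.5%, near the 11.5% of all genes in that fit. The 8 include GPC4 and PTK7, which passed the filter through ICM alone, so this share is a description too. Of the 7 export and retromer genes, 4 had every TE library above every ICM library, where 17.8% of all genes did. Of the 11 polarity genes, 4 had every ICM library above TE, where 6.81% of all genes did, and 1 of these 4, PTK7, passed the filter through ICM alone. Among the polarity genes, the pseudokinase receptor PTK7, a WNT coreceptor, had 2.81, 2.38 and 1.49 RPKM in ICM 15, 22 and 25, against 0.597, 0.798 and 0.746 RPKM in TE 16, 23 and 24. Its difference of 0.89 (SE 0.25, limma adjusted p = 0.11) had an adjusted p of 0.021 without ICM 25, and since PTK7 passed the filter through ICM alone these are descriptions. Of the 5 target genes tested, MYC, BMP4, MSX2 and SP8 had a difference below 0 and ID2 above 0, with a median of -0.29 and 0 calls by limma. BMP4, a ligand of the BMP pathway, differed by -0.71 (SE 0.30), the homeobox gene MSX2 by -0.29 (SE 0.33) and the zinc finger gene SP8 by -0.04 (SE 0.51), each with overlapping libraries. MYC had 1.89, 5.11 and 0.898 RPKM in the ICM libraries, against 6.03, 7.25 and 10.8 RPKM in the TE libraries, while ID2 had 58.5, 40.04 and 17.1 RPKM in ICM, against 13.5, 11.2 and 16.6 RPKM in TE. Neither was called with all libraries (limma adjusted p = 0.13 and 0.17), and ID2 passed without ICM 25 (adjusted p = 0.0059).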

How the data were processed

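The authors deposited 1 table with RPKM for 6 libraries, per the file headers. The fold (a ratio), log2 fold, p-value and adjusted p-value of DESeq and its mean normalized signal are also theirs, per the file headers. The authors used FastQC and DESeq, per the submitters' processing notes. Aligner, counter, build and annotation: not given in the sources used here. All deposited rows reach 0.4 RPKM in 2 or more libraries. RPKM and mean signal together gave back the reads, whole within 0.001 for 100% of values up to 1000 reads in every library. They come from amplified cDNA without molecular identifiers.

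The members and lists were chosen with earlier results of these data known. The test was limma 3.58.1 (R 4.3.3, eBayes with trend, two-sided) on log2(RPKM + 1). It was also run on simulated data with the same spread in both tissues and no outlying library. That run does not check the fit under the uneven spread of these data. The rule for named genes took called or non-overlapping members, the most abundant of each role, ligands, RSPO, DKK and FRZB rows, TCF/LEF factors, CTNNB1, AXIN2 and members called without ICM 25, and further members were added so that each is accounted for. GPC4, DAB2 and JUP were named as called list genes. PTK7, MAFF, the target genes and the markers were chosen after their values were seen. Symbols are as deposited, and the gene table of assembly TB-T2T lists 38 of the 39. Alternatives were no filter, a filter of 5 RPKM, a pseudocount of 0.1, median of ratios rescaling, quantile normalization, library weights, limma voom on the reads, and each library left out.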

Additional observations from a re-analysis of the deposited data

How the results depend on the processing

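No paired analysis was run, because no label names the embryo of a library and no library number occurs in both tissues. The numbers lie side by side across the tissues (ICM 15 and TE 16, ICM 22 and TE 23, TE 24 and ICM 25). No label says whether such neighbours came from the same blastocyst, and the fits treated all libraries as independent. The count of genes called, 176 with all settings as reported, was 112 with a pseudocount of 0.1, 114 when no filter was set, 81 with a 5 RPKM minimum, 760 with library weights, and 0 to 1086 when single libraries were left out. The count of members called, 1 as reported, was 0 when no filter was set, with the 5 RPKM minimum (which drops CSNK1E) and with voom, 2 with median of ratios rescaling and with quantile normalization, 3 with library weights, and 0 to 3 when single libraries were left out. Of 360 values of the 29 members over the alternatives, 311 kept direction and side of the threshold and 36 turned sign, for 13 members that were not called in any of the alternatives. With median of ratios rescaling, quantile normalization and library weights the LRP6 difference was 0.13, 0.11 and 0.069, that of TCF7L2 0.14, 0.11 and 0.12, and that of TLE3 0.074, 0.046 and 0.034. With the first pair of settings that of WLS was 0.11 and 0.052 and that of DVL2 0.084 and 0.054. With single libraries left out the ranges were -0.055 to 0.36 for PORCN, -0.69 to 0.28 for WLS, -0.31 to 0.71 for FZD6, -0.13 to 0.088 for LRP6, -0.20 to 0.59 for DKKL1, -0.56 to 0.12 for AXIN2, -0.17 to 0.26 for CSNK1D, -0.058 to 0.23 for CSNK1G3, -0.035 to 0.29 for CTNNB1, -0.17 to 0.20 for TCF7L2, -0.30 to 0.63 for TLE1 and -0.16 to 0.027 for TLE3. The causes were not tested. Members with at most 30 reads per library, such as WNT5B, DKK4, CSNK1G2, CTNNBIP1 and LEF1, are limited by depth.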
